A study of Mus musculus with 12 samples.

Results

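Lysosome and autophagy genes were followed across 4 groups of cultured 4T1 cells, a triple-negative mammary carcinoma line from the BALB/c mouse. The list held 33 genes, taken by symbol from the 40406 entries of the count table: 8 proteases, 7 hydrolases of sugars and lipids, 4 cofactors and lipid carriers, 7 membrane proteins, 2 proton pump subunits, 3 autophagy proteins and 2 transcription factors. All 33 symbols were found, and 31 passed the filter on low counts and were tested. The cells were either wild type (WT) for integrin β3, the product of Itgb3, or carried a β3 knockout label, and were grown on poly-L-lysine. Cultures of each genotype spent 24 h with DMSO, the solvent, or with 10 nM docetaxel, a drug of the taxane class that blocks the disassembly of microtubules. RNA was taken 48 h after the drug or solvent had been washed away. Each of the 4 groups had 3 libraries, labelled as biological replicates. The labels do not say how the knockout was made or whether it is 1 clone, so genotype and any difference between clones cannot be told apart.

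Lysosomes are acidic organelles that break down proteins, sugars and lipids delivered by endocytosis and autophagy. A proton pump in their membrane keeps the interior acid, soluble hydrolases such as the cathepsins do the degradation, and carriers export the products. TFEB and TFE3 are transcription factors that switch many lysosome and autophagy genes on together, through a short palindromic promoter element known as the CLEAR motif, an extended E-box. In autophagy, LC3 and its homologues coat the membrane that encloses cargo, and receptors such as p62, the product of Sqstm1, tie cargo to LC3.

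Promoter sequences are shown because TFEB and TFE3, both on the list, are known to act on many lysosome and autophagy genes through this element. RefSeq promoter windows, 250 bases before to 50 after the start on GRCm38.p6, were matched to 28 of the 33 genes. The E-box CACGTG, which reads the same on both strands, lay in the windows of 8 of these 28 genes (28.6%), against 8.09% of all 27025 genes with a window. The 8 were Ctsa, Ctsd, Ctsl, Lamp1, Glb1, Gaa, Mcoln1 and Atp6v0d1. The longer TCACGTGA, which contains CACGTG and is also its own reverse complement, lay in 4 of the 28 (14.3%; Ctsa, Ctsd, Mcoln1 and Atp6v0d1), against 1.12% of all genes. A match is a description of the letters in the window, not evidence of a bound site. The stretches below, on the gene's own strand with the motif in capitals, are those of 5 genes that differ in what the transcripts did: Lamp1 with 4 matches, Ctsd, Mcoln1 and Atp6v0d1 with the longer form, and Glb1. Ctsd holds a further CACGTG 245 bases before its start, which is not printed.
Lamp1, chr8:13159080-13159171, plus strand: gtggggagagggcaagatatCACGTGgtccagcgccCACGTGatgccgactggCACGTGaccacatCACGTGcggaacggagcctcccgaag
Ctsd, chr7:142387900-142387945, minus strand: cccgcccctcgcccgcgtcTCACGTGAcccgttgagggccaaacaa
Mcoln1, chr8:3500428-3500499, plus strand: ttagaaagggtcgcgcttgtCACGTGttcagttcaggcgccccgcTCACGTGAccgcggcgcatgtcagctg
Atp6v0d1, chr8:105566042-105566087, minus strand: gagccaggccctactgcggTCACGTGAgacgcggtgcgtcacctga
Glb1, chr9:114401010-114401055, plus strand: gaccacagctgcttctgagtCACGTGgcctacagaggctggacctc

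The libraries held 28.7 to 40.8 M counts (M, mega). Levels are given as CPM, counts per mega-count of the TMM-scaled library, in the order of libraries 1, 2 and 3 of each group, and n = 3 libraries in every group mean and test. The knockout label was checked against Itgb3 itself: its level was 71.4, 60.1 and 66.1 CPM in the WT DMSO libraries and 62.4, 66.7 and 65 CPM in the DMSO libraries of knockout-labelled cells. These groups overlapped, so the count over the whole gene did not show the label, and the labels do not give the edited stretch. After docetaxel the knockout-labelled libraries were lower for Itgb3, at 59.3, 64.6 and 63.4 CPM against 80.6, 88.7 and 80 CPM. The cells are therefore called knockout-labelled throughout. The labels of WT DMSO library 1 disagree: the description says knockout, the title and the genotype field say wild type, and the latter were followed. That library was the lowest of its group for 24 of the 31 tested genes of the list, and WT DMSO library 3 was the highest for 20. The share of counts in Gm23935, a non-coding RNA, ran from 0.137% to 3.98% across libraries. Of 7 epithelial markers, 6 reached 1 CPM in every group. Of 13 macrophage markers, 2 did, Cd14 and Csf1r, and Tyrobp and C1qc were at 0 in every group. Of 5 endothelial markers none reached 1 CPM, and their sum was at most 0.768 CPM in a library.

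Where a gene of the list differed between the genotypes, WT cells had the higher level. Under DMSO, 14 of the 31 tested genes were lower in knockout-labelled than in WT cells and 0 were higher. Over all 15538 genes tested, edgeR called 9.2% lower and 6.6% higher at an adjusted p under 0.05, the threshold used throughout. The median log2 difference was -0.31 over the list and 0.01 over all genes, and 28 of the 31 fitted differences were below 0. Among the 9323 genes with a mean of at least 8.59 CPM, the level of Tfeb, the lowest tested gene of the list, 11.6% were lower. After docetaxel, 9 of the 31 were lower in knockout-labelled cells and 0 were higher, against 3.39% and 2.5% of all genes. The median was then -0.17, against 0.01 over all genes. The 8 genes lower in both treatments were Ctsb, Ctsd, Gpnmb, Grn, Npc1, Man2b1, Atp6v0d1 and Map1lc3b. They were 57.1% of the 14 and 88.9% of the 9, where the 390 genes lower in both over the whole table were 27.3% and 74.1% of the lower calls. The count of 0 higher calls was the same by DESeq2 and limma-voom, and at an unadjusted p under 0.05 edgeR gave 0 higher genes of the list in either treatment, against 13.9% of all genes under DMSO and 8.01% after docetaxel.

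The count under DMSO turned on single libraries. It was 9 without any one of the knockout-labelled DMSO libraries, 10 without WT DMSO library 3, 12 without WT DMSO library 2, and 20 without WT DMSO library 1, whose labels disagree. The count after docetaxel was 4 without WT docetaxel library 2, 5 without WT docetaxel library 3, 5 without knockout-labelled docetaxel library 3 and 6 without knockout-labelled docetaxel library 2. Fibroblast markers moved with the genotype: their summed level was 28.6 to 30.7 CPM in WT and 14.9 to 18.7 CPM in knockout-labelled DMSO libraries. Nearly all of this was Pdgfra, at a mean of 28.4 and 15 CPM, while Lum was at 0 and Dcn at most 0.0229 CPM in group means. In RNA from whole cultures, fewer cells of a type and less RNA per cell cannot be told apart.

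**Figure D1:**
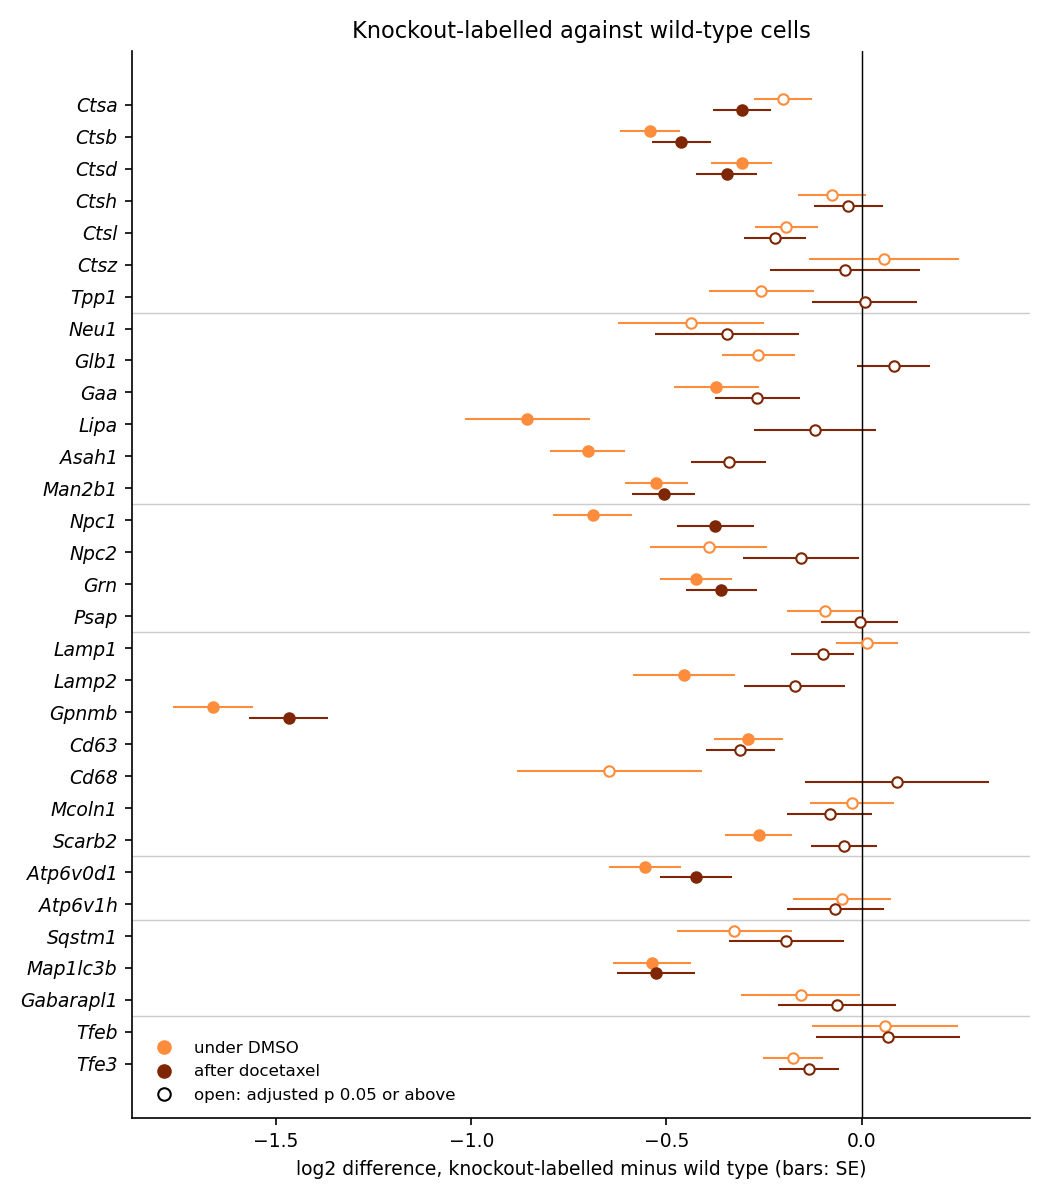
Log2 difference (x axis) between knockout-labelled and WT cells for the 31 tested genes, under DMSO (orange) and after docetaxel (brown), with SE as bars. Filled points passed an adjusted p under 0.05 (14 and 9 genes), all of them left of 0, and Gpnmb lies farthest out in both treatments.

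With docetaxel, genes of the list were called in both directions. In WT cells 6 of 31 were higher (19.4%) and 3 lower (9.68%) after the drug, against 14.5% higher and 13.8% lower over all genes. Among the 9323 genes with a mean of at least 8.59 CPM, 17.6% were higher and 18.6% lower. The WT shares of the list were thus near or below those of other genes. The medians were 0.01 over the list and 0.02 over all genes. In knockout-labelled cells 8 of 31 were higher (25.8%) and 2 lower (6.45%), against 9.09% and 7% of all genes. Among the 9323 genes these shares were 10.4% and 9.31%. The medians there were 0.144 over the list and 0.002 over all genes. These comparisons share no library. Atp6v1h, Ctsb, Ctsd, Gpnmb and Lamp1 were higher in both, which made 83.3% of the 6 and 62.5% of the 8, where over the whole table the genes higher in both were 44.4% and 71.1% of the higher calls. Ctsh and Glb1 were lower in both. The higher count in WT cells was 4 without WT DMSO library 1, WT docetaxel library 2 or WT docetaxel library 3. The lower count in WT cells was 5 without WT DMSO library 1 and 2 without WT DMSO library 2. In knockout-labelled cells the higher count was 5 without DMSO library 3 or docetaxel library 3, and the lower count was 1 without DMSO library 2 or 3.

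**Figure D2:**
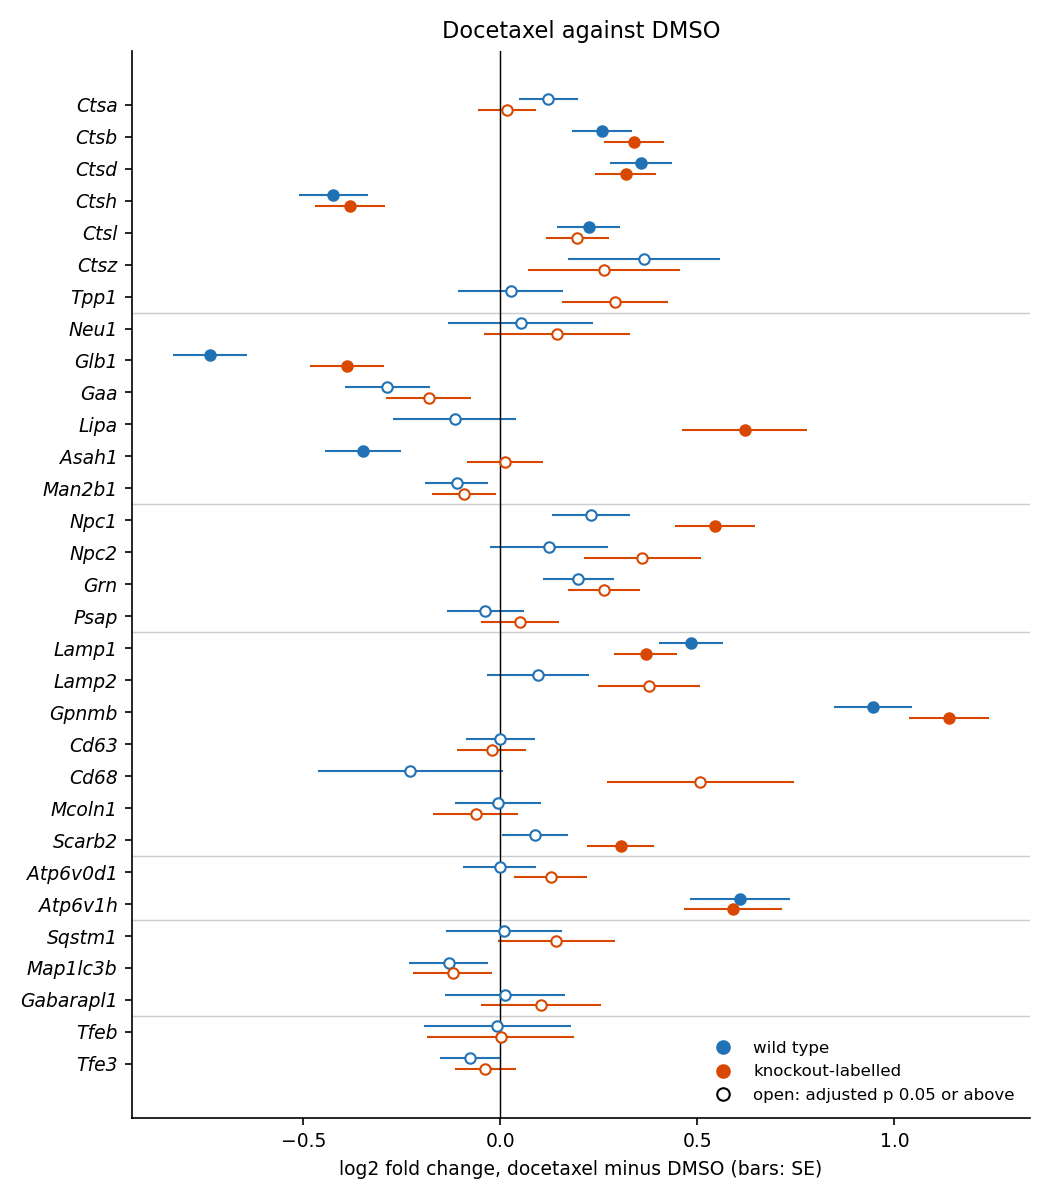
Log2 fold change (x axis) between docetaxel and DMSO for the same 31 genes in WT (blue) and knockout-labelled cells (red), with SE as bars and filled points where the adjusted p was under 0.05. Gpnmb, Atp6v1h and Lamp1 sit to the right and Glb1 and Ctsh to the left in both genotypes.

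The plot of levels by library sets the 31 genes side by side.

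**Figure D3:**
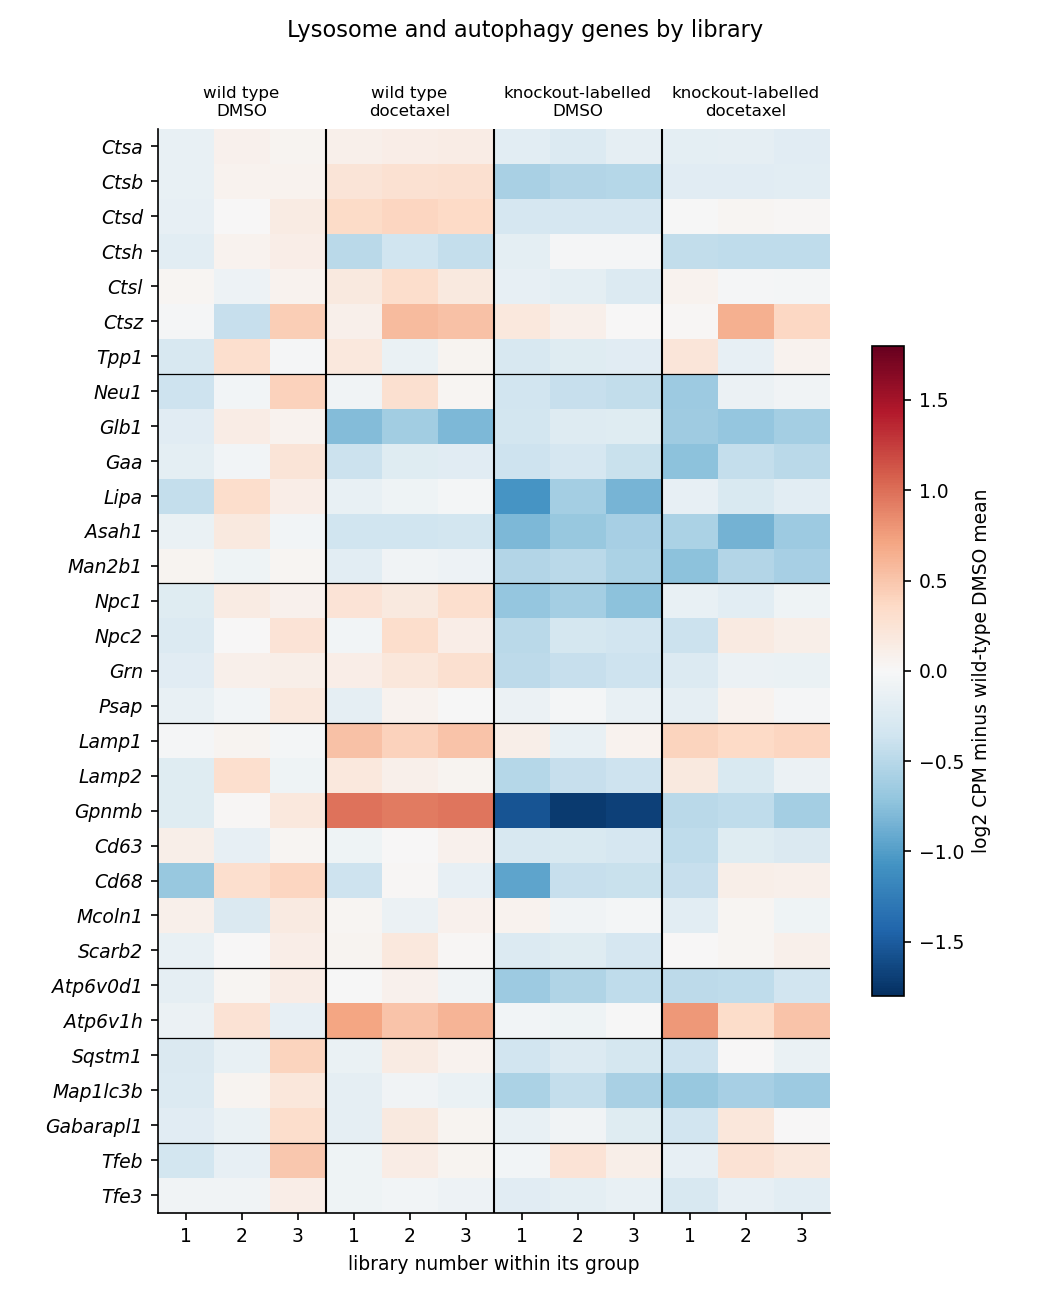
Log2 CPM of each tested gene in each of the 12 libraries (columns, 3 per group) minus the mean of the WT DMSO group, red above and blue below; lines separate the functional groups from proteases at the top to transcription factors at the bottom. The knockout-labelled DMSO columns are blue for most genes, deepest for Gpnmb, and WT DMSO library 1 is paler or bluer than libraries 2 and 3 in most rows.

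Levels of different genes were compared only per kilobase of annotated exon. On that scale, in WT DMSO cells, Sqstm1 stood highest with a mean of 199 CPM per kb, followed by Lamp1 at 181, Ctsl at 169, Psap at 168 and Ctsz at 127. Across all 12 libraries Sqstm1 ranged from 151 to 256 and Lamp1 from 165 to 259, so these neighbours overlapped. At the lower end stood Lipa at 3.84, Atp6v1h at 3.56, Npc1 at 2.64 and Tfeb at 1.48 CPM per kb. Tfe3, at 7.66, stood above Tfeb in every library, with a lowest value of 6.23 against a highest of 2.01. The most abundant transcripts of the list therefore encode an autophagy receptor, the main lysosomal membrane glycoprotein, a pair of soluble proteases and the precursor of the saposins, and the least abundant tested transcript encodes a regulator.

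Among the membrane proteins, Gpnmb changed most. It encodes a transmembrane glycoprotein of melanosomes and lysosomes that is also found on tumour cells and macrophages. Its level was 42.5, 50.1 and 56.5 CPM in the WT DMSO libraries and 16.8, 14.9 and 15.4 CPM in the DMSO libraries of knockout-labelled cells. After docetaxel it was 97.1, 94.1 and 96 CPM in WT and 35.4, 36 and 32.3 CPM in knockout-labelled cells. No 2 of the 4 groups overlapped, and the knockout-labelled cells after the drug still lay below the WT cells without it. Gpnmb was 3.16-fold lower in knockout-labelled cells under DMSO (log2 difference -1.66, SE 0.10, edgeR adjusted p = 1.48e-07) and 2.77-fold lower after docetaxel (-1.47, SE 0.10, edgeR adjusted p = 5.29e-07). It rose 1.93-fold with docetaxel in WT cells (log2 fold change 0.95, SE 0.10, edgeR adjusted p = 2.59e-05) and 2.2-fold in knockout-labelled cells (1.14, SE 0.10, edgeR adjusted p = 5.42e-06). The difference between these rises was 0.19 (SE 0.14) and did not pass (edgeR adjusted p = 0.618). All 4 calls held under every alternative tried. The summed level of the macrophage markers was also higher with docetaxel, at 33.5 to 38.3 CPM in WT cells against 17.7 to 19.8 CPM under DMSO, carried by Cd14 at a mean of 16.6 and then 33.4 CPM. Adgre1, Lyz2 and C1qb were at 0 in the WT DMSO libraries and at most 0.0282 CPM in WT docetaxel group means. Between the genotypes under DMSO the macrophage sums overlapped (17.8 to 22.1 CPM in knockout-labelled cells), while Gpnmb did not.

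Lamp1, the main glycoprotein of the lysosomal membrane, followed the drug and not the genotype. It was at 477, 502 and 473 CPM in WT DMSO, 694, 648 and 689 CPM in WT docetaxel, 518, 441 and 507 CPM in knockout-labelled DMSO and 640, 623 and 632 CPM in knockout-labelled docetaxel libraries. Every docetaxel library lay above every DMSO library. The rise was 1.4-fold in WT cells (log2 fold change 0.48, SE 0.08, edgeR adjusted p = 0.00076) and 1.29-fold in knockout-labelled cells (0.37, SE 0.08, edgeR adjusted p = 0.00688), and both calls held under every alternative tried. The genotypes differed by 0.01 under DMSO (edgeR adjusted p = 0.933) and by -0.10 after docetaxel (edgeR adjusted p = 0.584). Lamp2, its paralogue with a role in chaperone-mediated autophagy, was lower in knockout-labelled cells under DMSO by 0.46 on the log2 scale (SE 0.13, edgeR adjusted p = 0.0286). This Lamp2 call was lost without WT DMSO library 2 (edgeR adjusted p = 0.132) and without any one of the knockout-labelled DMSO libraries (0.0642 to 0.121). With docetaxel Lamp2 rose in knockout-labelled cells by 0.38 (SE 0.13), which did not pass in the main analysis (edgeR adjusted p = 0.0616). That rise passed in some alternatives, among them DESeq2 (DESeq2 adjusted p = 0.0347) and the GC correction (edgeR adjusted p = 0.035).

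Scarb2, the receptor that carries glucocerebrosidase to the lysosome, was lower in knockout-labelled cells under DMSO by 0.26 on the log2 scale (SE 0.08, edgeR adjusted p = 0.0492) and rose with docetaxel in those cells by 0.31 (SE 0.08, edgeR adjusted p = 0.0251). Cd63, a tetraspanin of late endosomes and exosomes, was lower under DMSO by 0.29 (SE 0.09, edgeR adjusted p = 0.0382). These were the least firm calls among the membrane proteins. The Scarb2 difference under DMSO was lost in 18 of 23 alternatives, among them the omission of any one library other than WT DMSO library 1 or knockout-labelled docetaxel library 1 (adjusted p of up to 0.157), and with no filter on low counts (0.166). Its rise with docetaxel was lost without any one of the knockout-labelled DMSO libraries (0.0612 to 0.0977) or docetaxel library 3 (0.0982). The Cd63 call was lost without WT DMSO library 1 (0.09) or 3 (0.0858), WT docetaxel library 2 (0.055) or 3 (0.0562), knockout-labelled docetaxel library 3 (0.0616), or any one of the knockout-labelled DMSO libraries (0.0829 to 0.114). After docetaxel the Cd63 difference was -0.31 (SE 0.09) and did not pass in the main analysis (edgeR adjusted p = 0.0531). It did pass in some alternatives, among them DESeq2 (DESeq2 adjusted p = 0.0159), limma-voom (limma-voom adjusted p = 0.0423) and the GC correction (edgeR adjusted p = 0.0141). Mcoln1, the calcium channel of the lysosome, ranged from 31.8 to 42.4 CPM. Cd68, a heavily glycosylated late endosomal protein, ranged from 13 to 32.9 CPM. Neither passed in any comparison of the main analysis. Cd68 did pass as lower in knockout-labelled cells under DMSO by DESeq2 (DESeq2 adjusted p = 0.0375). By edgeR this Cd68 difference passed with the replicate block (edgeR adjusted p = 0.0082) and without WT DMSO library 1 (0.00385).

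Of the 8 proteases, Ctsb changed in all 4 comparisons. Cathepsin B is a cysteine protease of the lysosome that tumour cells can also secrete. Ctsb was at 507, 577 and 581 CPM in WT DMSO and 370, 384 and 389 CPM in knockout-labelled DMSO libraries. After docetaxel it was at 649, 670 and 674 CPM in WT and 480, 479 and 487 CPM in knockout-labelled libraries. The 4 groups did not overlap, and WT cells were the higher in each treatment. Ctsb was 1.46-fold lower in knockout-labelled cells under DMSO (log2 difference -0.54, SE 0.08, edgeR adjusted p = 0.000324) and 1.38-fold lower after docetaxel (-0.46, SE 0.08, edgeR adjusted p = 0.00214). With docetaxel it rose by 0.34 on the log2 scale in knockout-labelled cells (SE 0.08, edgeR adjusted p = 0.00809) and by 0.26 in WT cells (SE 0.08, edgeR adjusted p = 0.0207). The last of these calls was lost without WT DMSO library 1 (edgeR adjusted p = 0.0579), WT docetaxel library 2 (0.0579) or WT docetaxel library 3 (0.0693).

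Ctsd, the aspartic protease cathepsin D, was likewise lowest in knockout-labelled DMSO cells and highest in WT cells after docetaxel. It was at 246, 274 and 302 CPM in WT DMSO, 346, 357 and 349 CPM in WT docetaxel, 221, 221 and 222 CPM in knockout-labelled DMSO and 273, 280 and 276 CPM in knockout-labelled docetaxel libraries. The knockout-labelled docetaxel libraries overlapped the WT DMSO libraries, and the other groups stood apart. With docetaxel Ctsd rose by 0.36 in WT cells (SE 0.08, edgeR adjusted p = 0.00437) and by 0.32 in knockout-labelled cells (SE 0.08, edgeR adjusted p = 0.0139). It was lower in knockout-labelled cells by 0.31 under DMSO (SE 0.08, edgeR adjusted p = 0.0168) and by 0.35 after docetaxel (SE 0.08, edgeR adjusted p = 0.0164). Only the rise in WT cells held under every alternative. The rise in knockout-labelled cells was lost without DMSO library 2 (0.0539) or 3 (0.0502) or docetaxel library 3 (0.0521). The difference under DMSO was lost without WT DMSO library 3 (0.0615) or any one of the knockout-labelled DMSO libraries (0.0514 to 0.0639), and that after docetaxel without WT docetaxel library 2 (0.0693) or 3 (0.0691) or knockout-labelled docetaxel library 3 (0.0789).

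Ctsh, the aminopeptidase cathepsin H, moved the other way with the drug. It was at 152, 182 and 189 CPM in WT DMSO, 124, 136 and 129 CPM in WT docetaxel, 154, 171 and 171 CPM in knockout-labelled DMSO and 128, 126 and 127 CPM in knockout-labelled docetaxel libraries. Every docetaxel library was below every DMSO library. Ctsh fell by 0.42 on the log2 scale in WT cells (SE 0.09, edgeR adjusted p = 0.00314) and by 0.38 in knockout-labelled cells (SE 0.09, edgeR adjusted p = 0.00954), under every alternative tried. The genotypes did not pass in either treatment (edgeR adjusted p = 0.617 and 0.898).

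The remaining proteases gave weaker or no calls. Ctsl, a cysteine protease and the most abundant protease of the list per kilobase, ranged from 921 to 1362 CPM and rose with docetaxel in WT cells by 0.22 (SE 0.08, edgeR adjusted p = 0.0496). That call was lost in 19 of 23 alternatives, among them the omission of any one library other than knockout-labelled docetaxel library 1, with an adjusted p of up to 0.193. Ctsa, a carboxypeptidase that also shields the neuraminidase Neu1, was lower in knockout-labelled cells after docetaxel by 0.31 (SE 0.07, edgeR adjusted p = 0.0242). It was lost without any one of the 6 docetaxel libraries (0.0528 to 0.114). Ctsz ranged from 133 to 275 CPM and Tpp1, a tripeptidyl peptidase, from 50.2 to 75.5 CPM. Neither passed in any comparison of the main analysis. The rise of Ctsz with docetaxel in WT cells passed without WT DMSO library 3 (edgeR adjusted p = 0.026) and with no filter on low counts (0.00342). Tpp1 passed as lower in knockout-labelled cells under DMSO without WT DMSO library 1 (edgeR adjusted p = 0.0449). Ctss, the cathepsin of antigen-presenting cells, had 0 counts in all 6 DMSO libraries, 4, 6 and 6 counts in the WT docetaxel libraries and 1, 3 and 2 counts in the knockout-labelled docetaxel libraries. Its summed 16 counts in WT cells after docetaxel have an exact 95% Poisson interval of 9.15 to 26, above the upper limit of 3.69 for 0 counts under DMSO. The 6 counts in knockout-labelled cells have an interval of 2.2 to 13.1, which overlaps that limit. Ctss did not pass the filter and was not tested, and these intervals cover counting error only.

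**Figure D4:**
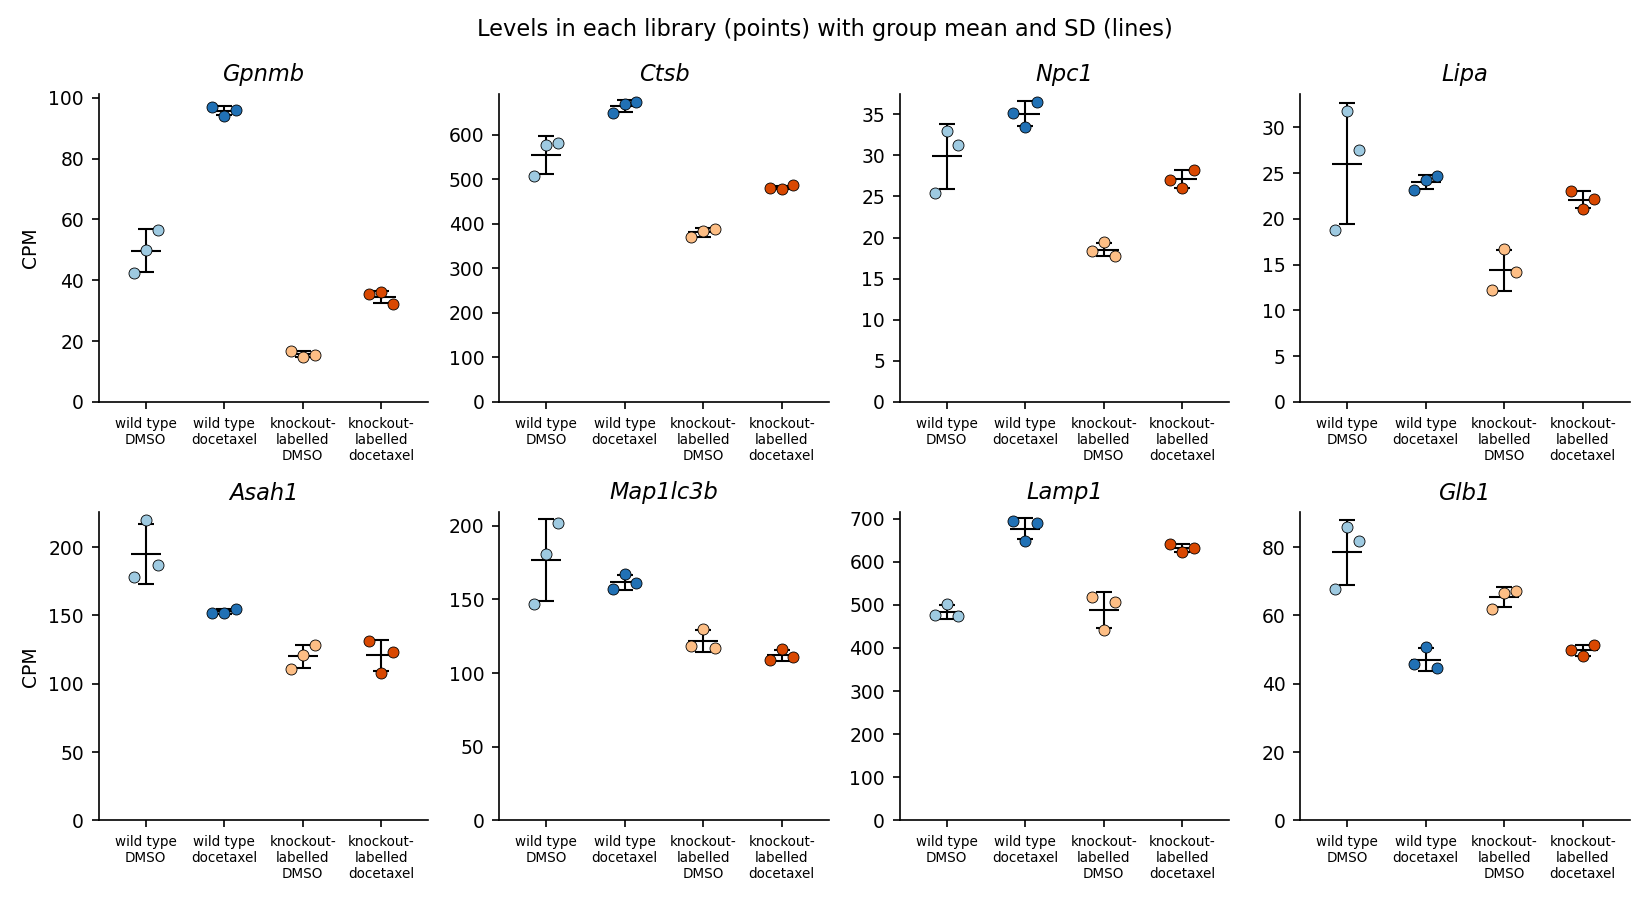
CPM (y axis, from 0) of 8 genes in each library (points) with the group mean and SD (lines), by group on the x axis. Gpnmb and Ctsb separate into 4 levels, Npc1 and Lipa are lowest in knockout-labelled DMSO cells, Asah1 and Map1lc3b are lower in both knockout-labelled groups, and Lamp1 and Glb1 divide by drug.

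Among the hydrolases of sugars and lipids, 4 of the 6 tested were lower in knockout-labelled cells under DMSO, against 9.2% of all genes. One of these, Gaa, was lost without any one of 4 libraries. Lipa encodes the acid lipase that frees cholesterol and fatty acids from lipoproteins. It was at 18.8, 31.8 and 27.5 CPM in WT DMSO and 12.2, 16.7 and 14.2 CPM in knockout-labelled DMSO libraries. After docetaxel it was at 23.2, 24.2 and 24.7 CPM in WT and 23, 21.1 and 22.2 CPM in knockout-labelled libraries. The knockout-labelled DMSO libraries were thus below all others, and WT DMSO library 1 lay under the other 2 of its group. Lipa was 1.81-fold lower in knockout-labelled cells under DMSO (log2 difference -0.86, SE 0.16, edgeR adjusted p = 0.00255), a call that held under every alternative. After docetaxel the difference was -0.12 (SE 0.16, edgeR adjusted p = 0.767). In knockout-labelled cells Lipa rose 1.54-fold with docetaxel (log2 fold change 0.62, SE 0.16, edgeR adjusted p = 0.0172). This was lost without DMSO library 1 (0.0769) or 3 (0.0622) or docetaxel library 1 (0.0507) or 3 (0.0528) of that genotype. In WT cells the fold change was -0.12 (SE 0.16, edgeR adjusted p = 0.618).

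Asah1, the acid ceramidase, was lower in the knockout-labelled cells and fell with the drug in WT cells. It was at 178, 220 and 187 CPM in WT DMSO and 152, 152 and 155 CPM in WT docetaxel libraries. In knockout-labelled cells it was at 111, 121 and 128 CPM under DMSO and 131, 108 and 123 CPM after docetaxel. The 2 knockout-labelled groups overlapped and lay below both WT groups. The difference under DMSO was -0.70 (SE 0.10, edgeR adjusted p = 0.000267), 1.63-fold lower, and held under every alternative. After docetaxel it was -0.34 (SE 0.10) and did not pass in the main analysis (edgeR adjusted p = 0.0519). That difference did pass in some alternatives. Among these were DESeq2 (DESeq2 adjusted p = 0.0233), limma-voom (limma-voom adjusted p = 0.0438) and the GC correction (edgeR adjusted p = 0.004). In WT cells Asah1 fell by 0.35 with docetaxel (SE 0.10, edgeR adjusted p = 0.015), which was lost without WT DMSO library 2 (-0.25, edgeR adjusted p = 0.0661).

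Man2b1, the lysosomal alpha-mannosidase, differed by genotype alone. It was at 70, 64.1 and 69.1 CPM in WT DMSO, 59.4, 65 and 63.7 CPM in WT docetaxel, 46.9, 48.4 and 45.8 CPM in knockout-labelled DMSO and 40.5, 47.1 and 44.9 CPM in knockout-labelled docetaxel libraries. Every knockout-labelled library was below every WT library. The difference was -0.53 under DMSO (SE 0.08, edgeR adjusted p = 0.000647) and -0.51 after docetaxel (SE 0.08, edgeR adjusted p = 0.00172), and both calls held under every alternative.

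Glb1, the lysosomal beta-galactosidase whose activity is used as a stain for senescent cells, fell with docetaxel. It was at 67.8, 86 and 81.8 CPM in WT DMSO and 45.7, 50.8 and 44.7 CPM in WT docetaxel libraries. In knockout-labelled cells it was at 62, 66.7 and 67.3 CPM under DMSO and 50, 48.2 and 51.3 CPM after docetaxel. Every docetaxel library lay below every DMSO library. Glb1 was 1.67-fold lower with docetaxel in WT cells (log2 fold change -0.74, SE 0.09, edgeR adjusted p = 0.000121) under every alternative. In knockout-labelled cells it was 1.31-fold lower (-0.39, SE 0.09, edgeR adjusted p = 0.0122), which was lost without DMSO library 2 (0.0532) or 3 (0.0531). Gaa, the acid alpha-glucosidase that digests glycogen, was lower in knockout-labelled cells under DMSO by 0.37 (SE 0.11, edgeR adjusted p = 0.0315). The Gaa call was lost without WT DMSO library 3 (0.117) or any one of the knockout-labelled DMSO libraries (0.0576 to 0.102). Neu1, the lysosomal sialidase, ranged from 13.1 to 27.5 CPM and did not pass in the main analysis. It passed as lower in knockout-labelled cells under DMSO without WT DMSO library 1 (edgeR adjusted p = 0.0301) and with no filter on low counts (0.0148). Hexa, the alpha subunit of beta-hexosaminidase, had 0 to 5 counts in every library, so no fold is given. Its genomic neighbours Arih1, with 5285 to 10166 counts, Parp6, with 819 to 1184, and Pkm, with 82941 to 135640, were counted in the same table. The nearest protein-coding genes on each side were low as well. Tmem202, which overlaps Hexa on the opposite strand, had 0 to 1 counts, and Celf6 had 1 to 25.

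The 4 cofactors and lipid carriers were led by Npc1, the membrane protein that moves cholesterol out of the lysosome. It was at 25.4, 33 and 31.2 CPM in WT DMSO and 18.4, 19.4 and 17.8 CPM in knockout-labelled DMSO libraries. After docetaxel it was at 35.2, 33.5 and 36.5 CPM in WT and 27, 26 and 28.2 CPM in knockout-labelled libraries. The knockout-labelled DMSO libraries were the lowest and the WT docetaxel libraries the highest, and the other 2 groups overlapped. Npc1 was 1.61-fold lower in knockout-labelled cells under DMSO (log2 difference -0.69, SE 0.10, edgeR adjusted p = 0.000437) and rose 1.46-fold with docetaxel in those cells (0.55, SE 0.10, edgeR adjusted p = 0.00234). Both calls held under every alternative. The rise in WT cells was 0.23 (SE 0.10, edgeR adjusted p = 0.0962). The genotype difference after docetaxel was -0.38 (SE 0.10, edgeR adjusted p = 0.0381), and was lost without any one of the docetaxel libraries (0.0748 to 0.167) or the knockout-labelled DMSO libraries (0.0547 to 0.0586).

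Grn encodes progranulin, a secreted protein that is cut into granulins in the lysosome. It was at 332, 408 and 412 CPM in WT DMSO, 417, 440 and 465 CPM in WT docetaxel, 276, 288 and 294 CPM in knockout-labelled DMSO and 323, 354 and 353 CPM in knockout-labelled docetaxel libraries. The genotypes did not overlap within either treatment. The difference was -0.42 under DMSO (SE 0.09, edgeR adjusted p = 0.00645), under every alternative, and -0.36 after docetaxel (SE 0.09, edgeR adjusted p = 0.0314). The latter was lost without knockout-labelled DMSO library 2 (0.0503) or 3 (0.0506) or any one of the docetaxel libraries other than WT library 1 (0.0597 to 0.161). With docetaxel Grn rose in knockout-labelled cells by 0.26 (SE 0.09), which did not pass in the main analysis (edgeR adjusted p = 0.065). That rise passed in some alternatives, among them DESeq2 (DESeq2 adjusted p = 0.0297) and the GC correction (edgeR adjusted p = 0.0093). Npc2, the soluble partner of Npc1 in cholesterol export, ranged from 435 to 759 CPM. Psap, the precursor of the saposins that help degrade sphingolipids, ranged from 411 to 525 CPM. Neither Npc2 nor Psap passed in any comparison of the main analysis. Npc2 passed as lower in knockout-labelled cells under DMSO with the replicate block (edgeR adjusted p = 0.0234) and without WT DMSO library 1 (0.0339). Its rise with docetaxel in knockout-labelled cells passed with the block (edgeR adjusted p = 0.0371) and without docetaxel library 1 of these cells (0.025).

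The proton pump subunits divided between genotype and drug. Atp6v0d1, a subunit of the membrane sector, was at 45.8, 52.8 and 56.4 CPM in WT DMSO, 51.3, 54.3 and 49.1 CPM in WT docetaxel, 32.7, 35.2 and 37.6 CPM in knockout-labelled DMSO and 37.3, 37.6 and 40.4 CPM in knockout-labelled docetaxel libraries. Every knockout-labelled library was below every WT library. The difference was -0.56 under DMSO (SE 0.09, edgeR adjusted p = 0.00117) and -0.43 after docetaxel (SE 0.09, edgeR adjusted p = 0.0126), and the latter was lost without WT docetaxel library 2 (0.0687). Atp6v1h, a regulatory subunit of the cytosolic sector, was at 31.9, 41.3 and 31 CPM in WT DMSO, 56.6, 49.3 and 52.8 CPM in WT docetaxel, 33.4, 32.7 and 34.4 CPM in knockout-labelled DMSO and 59.1, 43.1 and 49 CPM in knockout-labelled docetaxel libraries. Every docetaxel library was above every DMSO library. Atp6v1h rose 1.52-fold in WT cells (log2 fold change 0.61, SE 0.13, edgeR adjusted p = 0.00302) and 1.51-fold in knockout-labelled cells (0.59, SE 0.12, edgeR adjusted p = 0.00593), under every alternative.

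Of the 3 autophagy proteins, Map1lc3b alone passed in the main analysis. It encodes LC3B, the ubiquitin-like protein that is joined to lipid on the autophagosome. It was at 147, 181 and 202 CPM in WT DMSO, 157, 167 and 161 CPM in WT docetaxel, 118, 130 and 117 CPM in knockout-labelled DMSO and 109, 116 and 111 CPM in knockout-labelled docetaxel libraries. Every knockout-labelled library was below every WT library. The difference was -0.54 under DMSO (SE 0.10, edgeR adjusted p = 0.00259) and -0.53 after docetaxel (SE 0.10, edgeR adjusted p = 0.00583), and both calls held under every alternative. Docetaxel changed it by -0.13 in WT cells (edgeR adjusted p = 0.355) and -0.12 in knockout-labelled cells (edgeR adjusted p = 0.454). Sqstm1 ranged from 507 to 860 CPM, with the highest value in WT DMSO library 3, and Gabarapl1, an LC3 homologue, from 26.1 to 41.3 CPM. Sqstm1 passed as lower in knockout-labelled cells under DMSO without WT DMSO library 1 (edgeR adjusted p = 0.0447) and with no filter on low counts (0.0222).

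Tfeb and Tfe3, the transcription factors of the list, did not pass in any comparison. Mitf, a gene of the TFEB control list read below, did pass between the genotypes under DMSO by edgeR. Tfeb ranged from 6.5 to 11.4 CPM over the 12 libraries and Tfe3 from 57.7 to 77.2 CPM. Under DMSO the genotype difference was 0.06 for Tfeb (SE 0.19, edgeR adjusted p = 0.872) and -0.18 for Tfe3 (SE 0.08, edgeR adjusted p = 0.148). With docetaxel the changes were -0.01 (SE 0.19) and -0.08 (SE 0.08) in WT cells. These are transcript levels, while both proteins are known to be controlled largely by phosphorylation and entry into the nucleus, which was not measured. Genes with the promoter motif had unlike responses. Of the 4 with TCACGTGA, Atp6v0d1 was lower in knockout-labelled cells in both treatments, Ctsd moved with drug and genotype, Ctsa was lower in knockout-labelled cells after docetaxel and Mcoln1 passed in none. Of the other 4 with CACGTG, Lamp1 rose and Glb1 fell with docetaxel in both genotypes, Ctsl rose in WT cells and Gaa was lower in knockout-labelled cells under DMSO. Whether genes with and without the motif differed was not tested.

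Whether docetaxel acted differently in the genotypes was tested directly. No gene of the list passed that test by edgeR, where 0.109% of all genes (17) did. DESeq2 and limma-voom also gave 0 genes of the list. At an unadjusted p under 0.05 edgeR gave 5 of the 31, against 1714 of all 15538 genes (11%). Of those 1714, 949 had a larger log2 fold change, or a smaller fall, in knockout-labelled cells. The 5 are therefore not read as a result about the list. All 5 had a larger log2 fold change, or a smaller fall, in knockout-labelled cells: Lipa by 0.74 (SE 0.22, edgeR adjusted p = 0.294), Cd68 by 0.74 (SE 0.33, edgeR adjusted p = 0.442), Asah1 by 0.36 (SE 0.14, edgeR adjusted p = 0.375), Glb1 by 0.35 (SE 0.13, edgeR adjusted p = 0.382) and Npc1 by 0.31 (SE 0.14, edgeR adjusted p = 0.437). Lipa passed without WT DMSO library 1 (0.92, edgeR adjusted p = 0.0142), and Lipa and Cd68 passed with no filter on low counts (0.00753 and 0.00695). Over all 22 alternatives the adjusted p ran up to 0.86 for Lipa and 0.919 for Cd68.

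Of the 31 tested genes, 20 passed in at least 1 comparison. Of these, Ctsb, Ctsd, Gpnmb, Lipa, Npc1 and Scarb2 were both lower in knockout-labelled cells and higher with docetaxel in at least 1 genotype. The matching shares over all genes are not given, so these counts are not read against a background. The genotype difference under DMSO and the rise in knockout-labelled cells share the knockout-labelled DMSO libraries, so they are not independent. Lipa and Scarb2 were called only in those comparisons. The 11 tested genes that passed in none were Cd68, Ctsz, Gabarapl1, Mcoln1, Neu1, Npc2, Psap, Sqstm1, Tfe3, Tfeb and Tpp1. Among them Cd68, Ctsz, Neu1, Npc2, Sqstm1 and Tpp1 passed under some alternatives.

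The wider pathway was read from 7 further lists of the same machinery, with no gene in common with the 33. Over all genes tested 14.5% rose and 13.8% fell with docetaxel in WT cells, and 9.09% and 7% in knockout-labelled cells. Of the 7 lists the proton pump had the largest share of rises with docetaxel, 46.7% in WT and 66.7% in knockout-labelled cells. Of 15 other pump subunits tested, 7 rose and 1 fell in WT cells and 10 rose and 1 fell in knockout-labelled cells, with median log2 fold changes of 0.23 and 0.32. These counts rested on single libraries: 4 pump subunits rose in WT cells without WT DMSO library 1, WT docetaxel library 1 or 3, or knockout-labelled DMSO library 3. In knockout-labelled cells 4 to 6 rose without any 1 of the 3 DMSO libraries or docetaxel library 1 or 3 of these cells. Atp6v0a2, a subunit of the membrane sector, went from 15.7 ± 1.58 to 30.6 ± 2.89 CPM (SD) in WT cells (log2 fold change 0.96, SE 0.11, edgeR adjusted p = 5.31e-05) and from 19.8 ± 1.67 to 29.9 ± 2.06 CPM in knockout-labelled cells (0.60, SE 0.11, edgeR adjusted p = 0.00206). Its paralogue Atp6v0a1 fell in knockout-labelled cells, from 60.2 ± 1.76 to 43.4 ± 2.7 CPM (-0.47, SE 0.09, edgeR adjusted p = 0.00203). Clcn7, the chloride and proton exchanger of the lysosome and one of 14 other membrane and transport genes, rose in WT cells from 21.5 ± 0.533 to 35.7 ± 3.02 CPM (0.73, SE 0.10, edgeR adjusted p = 0.000267) and in knockout-labelled cells from 22.9 ± 2.49 to 32.3 ± 2.86 CPM (0.50, SE 0.10, edgeR adjusted p = 0.00527). Of those 14, 2 rose and 1 fell in WT cells and 2 rose and 0 fell in knockout-labelled cells.

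Other hydrolases and their activators were called in both directions with docetaxel. Of 23 tested, 9 fell and 3 rose with docetaxel in WT cells and 4 fell and 3 rose in knockout-labelled cells. The falls were 39.1% of the list in WT and 17.4% in knockout-labelled cells, against 13.8% and 7% of all genes, and the rises were 13% in both, against 14.5% and 9.09%. The 3 rises came down to 1 in WT cells without WT DMSO library 3 or WT docetaxel library 1 or 2, and to 1 in knockout-labelled cells without DMSO library 2 or 3 or docetaxel library 1 or 3 of these cells. The falls in knockout-labelled cells numbered 1 or 2 without any 1 library of these cells other than docetaxel library 2. Gm2a, the ganglioside activator, fell in WT cells by 0.72 (SE 0.12, edgeR adjusted p = 0.000696). Between genotypes under DMSO, 9 of the 23 were lower in knockout-labelled cells and 1 was higher, with a median log2 difference of -0.27. Over all genes 9.2% were lower and 6.6% higher. The 1 higher call was kept on omission of WT DMSO library 1 or of docetaxel library 1 of the knockout-labelled cells, and lost on omission of any other library. The lower count was 5 without WT DMSO library 2 and 3 without knockout-labelled DMSO library 1. Gla, the alpha-galactosidase, was at 14.1 ± 2.34 CPM in WT and 9 ± 0.215 CPM in knockout-labelled DMSO libraries (-0.65, SE 0.12, edgeR adjusted p = 0.00255) and rose with docetaxel in the latter by 0.77 (SE 0.12, edgeR adjusted p = 0.000691). Tmem192, a lysosomal membrane protein, was lower in knockout-labelled cells under DMSO by 0.85 (SE 0.11, edgeR adjusted p = 0.000213), as was the pump subunit Atp6v1b2 by 0.45 (SE 0.08, edgeR adjusted p = 0.00197). After docetaxel 3 of the 23 hydrolases and activators were lower in knockout-labelled cells and 0 higher, against 3.39% and 2.5% of all genes. The lower count was 1 without WT docetaxel library 2 or 3 or knockout-labelled docetaxel library 3.

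Among the autophagy genes outside the lysosome, a pair of mitophagy receptors fell with docetaxel in both genotypes. Of 11 other receptors and LC3 homologues, 2 rose and 2 fell in WT cells and 0 rose and 2 fell in knockout-labelled cells with docetaxel. The WT shares, 18.2% up and 18.2% down, were near those of all genes (14.5% and 13.8%). In knockout-labelled cells 18.2% fell, against 7% of all genes, and 0 rose, against 9.09%. Bnip3, which marks mitochondria for autophagy and is known as a target of hypoxia, was at 68.6, 87.8 and 60.5 CPM in WT DMSO and 23.2, 33.9 and 23.2 CPM in WT docetaxel libraries. In knockout-labelled cells it was at 47.8, 65.3 and 65.2 CPM under DMSO and 22.2, 22.4 and 24.5 CPM after docetaxel. Every docetaxel library was below every DMSO library. It was 2.7-fold lower with the drug in WT cells (-1.43, SE 0.17, edgeR adjusted p = 7.68e-05) and 2.58-fold lower in knockout-labelled cells (-1.37, SE 0.17, edgeR adjusted p = 0.000111). Its relative Bnip3l was 1.77-fold lower in WT cells (-0.83, SE 0.12, edgeR adjusted p = 0.000272) and 1.62-fold lower in knockout-labelled cells (-0.69, SE 0.12, edgeR adjusted p = 0.00131).

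Of 25 genes of autophagosome formation, 4 rose and 3 fell with docetaxel in WT cells and 2 rose and 1 fell in knockout-labelled cells. The shares were 16% up and 12% down in WT cells and 8% and 4% in knockout-labelled cells, near or below those of all genes (14.5%, 13.8%, 9.09% and 7%). After docetaxel 0 of the 25 differed between genotypes by edgeR, where 3.39% of all genes were lower and 2.5% higher. At an unadjusted p under 0.05 edgeR gave 2 of the 25, against 2805 of all 15538 genes. In WT cells Atg16l1, which places LC3 on the membrane, rose by 0.52 (SE 0.09, edgeR adjusted p = 0.00083), and Ulk2, a kinase that starts autophagy, fell by 0.51 (SE 0.09, edgeR adjusted p = 0.00125). Of 12 genes that sort enzymes to the lysosome, 3 rose and 1 fell in WT cells and 0 rose and 1 fell in knockout-labelled cells. The one that fell in both was Igf2r, the larger mannose 6-phosphate receptor, by 0.45 (SE 0.09, edgeR adjusted p = 0.00245) and 0.46 (SE 0.09, edgeR adjusted p = 0.0034). Of 18 genes around TFEB control, 0 rose and 1 fell in WT cells and 1 rose and 0 fell in knockout-labelled cells with docetaxel. Counts of 1 to 4 in these smaller lists often changed when 1 library was left out: the 4 rises of autophagosome formation in WT cells were 1 without WT docetaxel library 1 and 2 without WT DMSO library 3 or WT docetaxel library 3, and the 2 rises in knockout-labelled cells were 0 without DMSO library 2 or 3 or docetaxel library 1 or 3 of these cells and 1 without DMSO library 1.

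**Figure D5:**
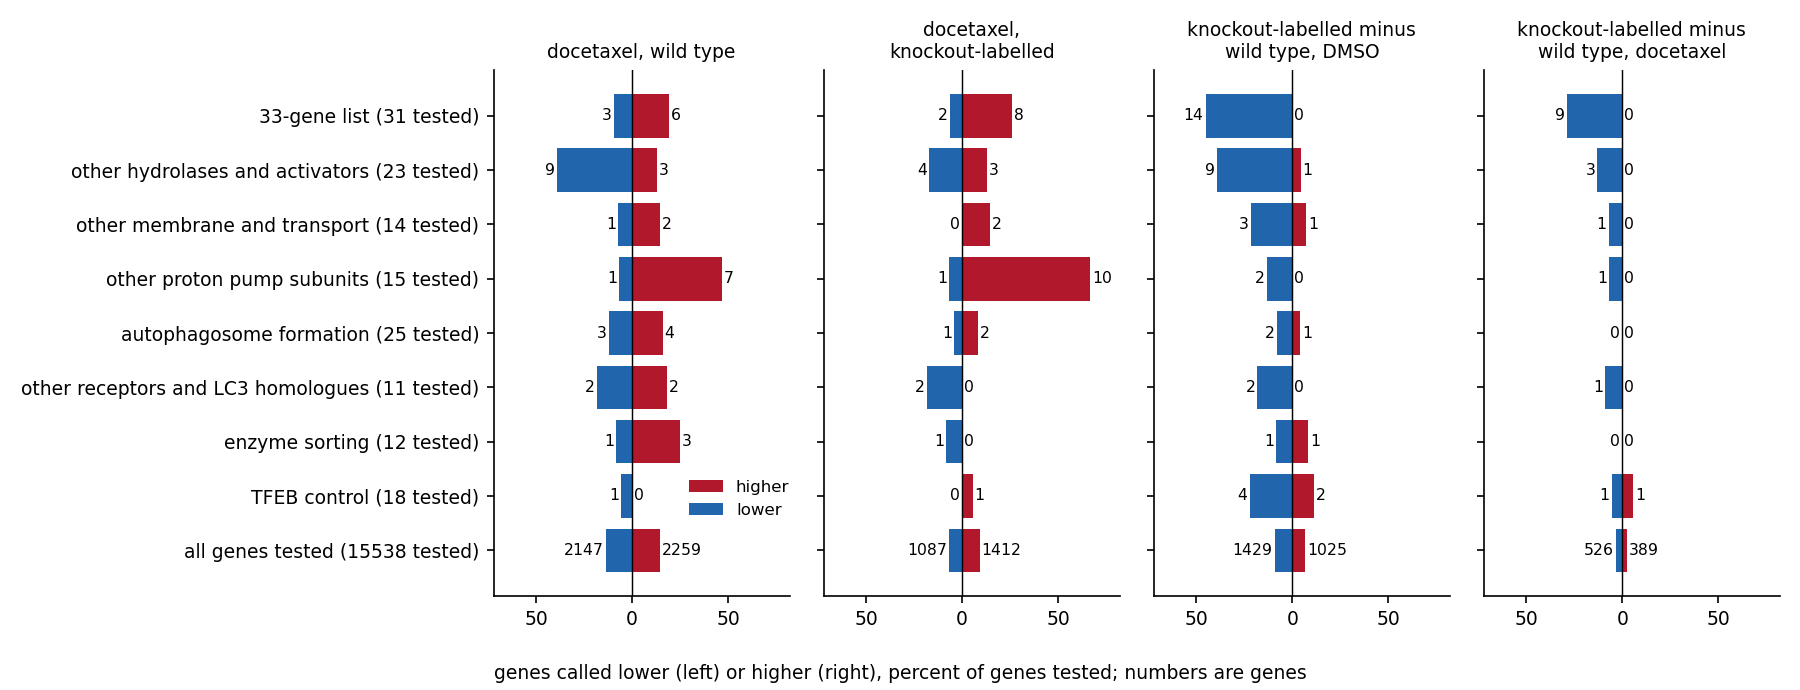
Share of tested genes (x axis, percent) called lower (blue, left) or higher (red, right) in 4 comparisons, for the list, the 7 further lists and all genes tested, with the number of genes at each bar. The 33-gene list has its longest bar on the left under DMSO (14 genes), and the other proton pump subunits on the right with docetaxel (7 and 10 genes).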

How the data were processed

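RNA from 12 cultures was depleted of ribosomal RNA and sequenced as paired reads, per the labels' protocols. STAR 2.5.1a, featureCounts 1.4.6-p5 of Subread, and bcl2fastq are named in the submitters' processing notes. No build, annotation or strand setting is named in the labels, so the reads of overlapping or antisense genes could not be told apart. Among the 33 genes this touches Ctsa, Ctsb, Ctsd, Ctsl, Lamp1, Npc1, Glb1, Grn, Atp6v1h, Map1lc3b and Sqstm1, among others. The deposited values are raw counts per gene symbol made by the authors, 1 column per library, and every column was matched to its library by title. Of 40757 entries, 351 exact repeats (0.907% of counts) were removed. Lengths and positions came from GENCODE M21 on GRCm38, which held every symbol. Libraries of 1 group differed by far more than sampling noise (chi-square per degree of freedom 7.79 or more).

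The test was that of edgeR 4.0.16 (R 4.3.3) on genes kept by filterByExpr: TMM scaling, 1 quasi-likelihood fit of 4 group means to the 12 libraries, 5 two-sided contrasts, Benjamini-Hochberg adjustment over 15538 genes and a threshold of 0.05. The common coefficient of variation was 13.2%. The SE is the absolute log2 difference over the square root of F. P-values measure the spread between cultures of 1 line. The test was checked on simulated data. Alternatives were DESeq2 1.42.0, limma-voom (limma 3.58.1), RLE and upper-quartile scaling, no filter, at least 1 CPM in 3 libraries, the contrast's libraries alone, a replicate block, a GC correction (lowess, span 0.3), omission of each library and of the 2 libraries richest in Gm23935. The block with the GC correction was chosen after seeing the data.

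The 33 genes, the further lists and the tests were chosen with earlier results of these data known. Values in every library are given for up to 8 called genes per contrast, by size of change. From each further list up to 3 called genes per contrast with the largest change and a mean of at least 5 CPM could be named. Those named, Mitf apart, are genes whose calls held in every alternative. Marker lists covered epithelium, macrophages, fibroblasts and endothelium. Promoter windows are RefSeq's. Figures were drawn with matplotlib 3.10.9.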

Additional observations from a re-analysis of the deposited data

How the results depend on the processing

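No call on a gene of the list changed direction under any alternative. Calls were gained as well as lost, so a gene that did not pass in the main analysis could pass in an alternative. Signs that changed for values called in neither fit were not counted. With 1 library left out, the genes of the list higher with docetaxel numbered 4 to 6 in WT and 5 to 10 in knockout-labelled cells, and those lower 2 to 5 and 1 to 2. Those lower in knockout-labelled cells numbered 9 to 20 under DMSO and 4 to 11 after docetaxel, and 0 to 1 passed the test of unequal docetaxel effects. Over all genes these omissions gave 1311 to 2881 calls for docetaxel in knockout-labelled cells, 1264 to 3273 and 467 to 1083 between genotypes under DMSO and after docetaxel, and 2 to 431 for unequal effects.

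Without the 2 libraries richest in Gm23935, 1267 genes differed between genotypes under DMSO (2454 in the main analysis) and 565 after docetaxel (915), of which 5 of the list (9), and 4 had unequal docetaxel effects (17). That last count was 165 by DESeq2, 8 by limma-voom, 39 with the GC correction and 421 with no filter, which brought in 2 genes of the list, Lipa and Cd68. The causes were not tested.

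Same-numbered libraries showed no regular pairing: 8 of 18 pairs correlated above 0.1, between -0.64 and 0.68. Their median was 0.068, against -0.044 for differently numbered libraries. Between the genotypes after docetaxel, the correlation was 0.677 for libraries 1, 0.452 for libraries 2 and -0.0225 for libraries 3. WT DMSO library 3 and knockout-labelled docetaxel library 2, which differ in number, correlated at 0.614. With the replicate block, 48 genes had unequal effects, and with block and GC correction 97, while 1474 differed between genotypes after docetaxel. Hexa and Ctss had at most 6 counts in a library and were not tested in the main analysis.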

Other observations

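Several genes of the further lists that mark other tissues were near 0: Ctsk, the cathepsin of osteoclasts, reached at most 0.447 CPM, Lamp3, a relative of Lamp1 known from dendritic cells, 0.395 CPM, Atp6v0d2, the osteoclast form of Atp6v0d1, 0.0569 CPM, and Tfec, a relative of Tfeb, 0.0294 CPM.

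Of all genes tested, 9.2% were lower and 6.6% higher in knockout-labelled cells under DMSO. In the remaining lists 3 of 14 membrane and transport genes were lower and 1 higher, 2 of 15 proton pump subunits lower and 0 higher, 2 of 25 genes of autophagosome formation lower and 1 higher, 2 of 11 receptors and LC3 homologues lower and 0 higher, 1 of 12 sorting genes lower and 1 higher, and 4 of 18 genes around TFEB control lower and 2 higher. The lower shares were 22.2% for TFEB control, 21.4% for membrane and transport, 18.2% for receptors and LC3 homologues, 13.3% for the pump, 8.33% for sorting and 8% for autophagosome formation. After docetaxel, with 3.39% of all genes lower and 2.5% higher, the lower and higher counts were 1 and 0 for membrane and transport, 1 and 0 for the pump, 1 and 0 for receptors and LC3 homologues, 0 and 0 for sorting, and 1 and 1 for TFEB control. Most of these small counts moved when 1 library was left out: under DMSO the lower membrane and transport genes numbered 6 without WT DMSO library 1, the lower pump subunits 5 without that library, 4 without knockout-labelled docetaxel library 1, and 1 without WT DMSO library 2 or 3 or knockout-labelled DMSO library 1 or 3, and the lower genes around TFEB control 2 without knockout-labelled DMSO library 1 or 3.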
